A study of Mus musculus with 3 samples.

Results

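The pericyte and smooth muscle genes followed here are 10 genes known from the mural cells that surround vessels: Acta2, Myh11, Rgs5, Tagln, Cnn1, Des, Cspg4, Mcam, Meis1 and Dcn. They were measured in sorted endothelial cells of the adult renal medulla. Each gene was taken from a probe set annotated to that gene alone, and all 10 were found, each with 1 probe set, among 19938 genes represented in this way. Mcam and Meis1 stood 3.57-fold and 2.02-fold above the 95th percentile of sensory receptor probe sets on the same arrays. Acta2, Cnn1, Des and Dcn lay 1.31-fold, 1.23-fold, 1.25-fold and 1.61-fold below that mark, each with the same value in all 3 arrays. Rgs5 and Tagln, whose values differed between arrays, lay 1.17-fold and 1.11-fold below it. Myh11 and Cspg4 lay 1.02-fold and 1.05-fold above it. With the mark at the 90th percentile, Cnn1 and Des lay above it by 0.04 and 0.02 log2 units. All 10 genes exceeded a level of 100 units in each of 3 arrays, as did 85.4% of all genes.

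The cells came from the medulla of adult male FVB/N mice carrying Tg(TIE2GFP)287Sato, in which the Tie2 (Tek) promoter drives green fluorescent protein. The dissected medullary region was digested with Collagenase A, and cells were sorted by fluorescence. Each array held RNA from a pool of 2 kidneys, and the 3 arrays were replicates of a single group, so that a level can be set against a limit but not against another compartment. The study describes its samples as biologically independent. The p-values rest on the spread between these 3 pools and on a variance borrowed from other genes, and the precision is limited by the number of pools. For a gene with the same value in all 3 arrays, the fit averages that lack of spread with the borrowed variance. Its interval is therefore narrower, and its p-value smaller, than the borrowed variance alone would give, and neither measures a spread between pools. Calls of such genes near a limit are less certain than printed. The Tie2 promoter is known to be active in some blood cells as well as in endothelium, and cells of other compartments, of embryos and of db/db mice were not analysed here.

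Mural cells lie on the outer face of endothelial tubes. Smooth muscle cells of arterioles contract through actin and myosin filaments, and in the medulla the pericytes of the descending vasa recta regulate blood flow to the inner part of the kidney. Genes of this set are in common use as markers of these cells, but several have wider expression: Mcam (CD146) is also known from endothelial cells, Meis1 from many stromal and blood-forming cells, and Dcn from fibroblasts. In a bulk sample of sorted cells, fewer cells of a type and less RNA per cell cannot be told apart.

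Levels were read against a pair of limits. The study's analysis removed probe sets under a raw level of 100, and 100 units correspond to a log2 level of 6.64. Units here are deposited log2 levels turned back to a linear scale, and the sources used here do not say whether they share the scale of that filter. The second limit was measured on the arrays: the 95th percentile of 1245 probe sets for olfactory, vomeronasal and bitter taste receptors, at a log2 level of 7.95 (247 units), is called the receptor limit below. These receptors are known mainly from sensory cells, and their probe sets had a median log2 level of 6.24 with a range of 3.93 to 10.91. Probes differ in affinity, so a gene under the receptor limit may still be transcribed, and the share of receptor probe sets below a gene places it only within this mixed set of probes. The 10 genes were not ranked among themselves. Each mean log2 level was set against the limit with limma (two-sided, Benjamini-Hochberg adjustment over all 19938 genes).

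Median log2 levels of the arrays lay within 0.03 of each other, and Pearson correlations between pairs of arrays ran from 0.9635 to 0.9656. Between 43.0% and 45.1% of probe sets had exactly the same value in any pair of arrays, and 46.3% of genes had the same value in all 3. The origin of these exact repeats was not tested, and they are no evidence of agreement between the pools. The fit nevertheless counts them as a measured lack of spread. For a gene with no spread the fitted error is close to 0, so intervals and adjusted p-values printed for single genes come from the fit whose prior variance was taken from genes with 3 different values. Where another prior is named, or a replicate was left out, the prior came from all genes. Counts of limma calls also had all genes in the prior unless the other prior is named. The labelled cell type was clear in its own markers. Pecam1, the adhesion molecule CD31, averaged a log2 level of 12.44 ± 0.08, Cdh5, the cadherin of endothelial junctions, 12.71 ± 0.18, Tek 12.80 ± 0.19 and the VEGF receptor Kdr 12.17 ± 0.21 (SD, n = 3 each), and all 12 endothelial genes listed were above the receptor limit in every array.

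All 10 pericyte and smooth muscle genes reached 100 units in every array, as did 85.4% of all genes, and 34.8% of the receptor probe sets did so too. By limma all 10 lay above 100 units (84.5% of all genes) and 0 below (13.7% of all genes), with 0 below at an unadjusted p under 0.05. The mean log2 level exceeded this limit by 0.62 for Dcn at the low end and by 3.14 for Mcam at the high end. A count of 10 of 10 at this limit is near the share of the whole array. Rgs5 was no longer called above 100 units without replicate 2 (adjusted p = 0.0858) or without replicate 3 (adjusted p = 0.0857, limma).

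The receptor limit divided the genes. In every array 3 of 10 were at or above it, namely Cspg4, Mcam and Meis1, against 54.8% of all genes. By limma 3 lay above it (52.4% of all genes), 5 below it (41.5% of all genes) and 2 could not be told from it. With the prior from genes with 3 different values these counts became 2 above (49.7% of all genes) and 4 below (38.0% of all genes). The median log2 level of the 10 genes was 7.76, against 8.15 over all genes. Myh11 and Cspg4 stood within 0.1 log2 units of the limit, a band that held 6.10% of all genes.

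**Figure D1:**
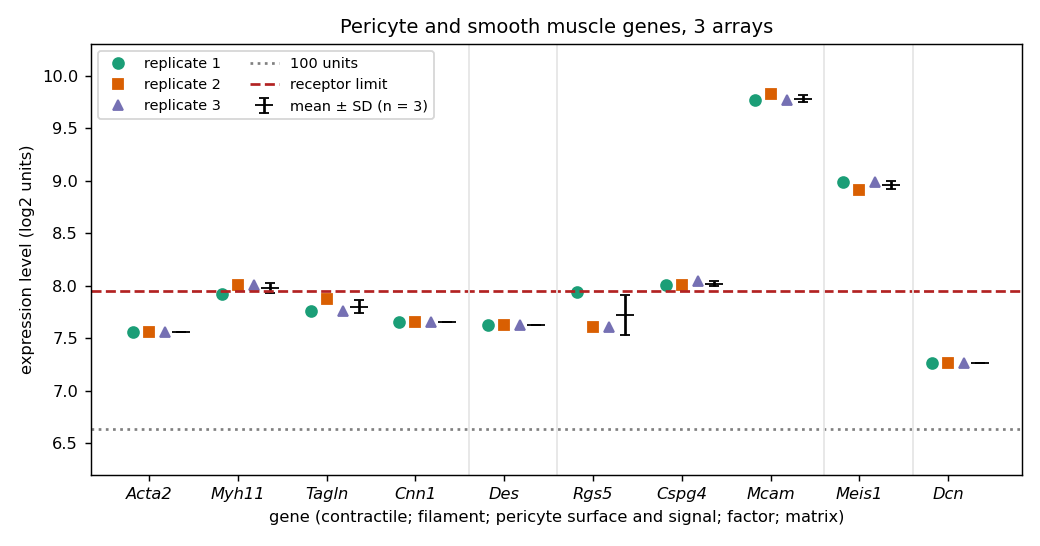
Expression level (log2 units, y axis) of the 10 genes (x axis, grouped by role) in replicates 1, 2 and 3 (points), with mean ± SD beside them (n = 3); the dotted line is 100 units and the dashed line the receptor limit. Mcam and Meis1 lay clear of the dashed line in all arrays, while Acta2, Cnn1, Des and Dcn lay under it with the same value in all 3.

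Acta2 encodes smooth muscle alpha-actin, a contractile protein and the usual marker of such mural cells. The log2 level of Acta2 was 7.56 in each of the 3 arrays (189 units), with no spread at all. Acta2 lay 0.38 log2 units below the receptor limit (95% interval of the mean minus the limit -0.55 to -0.22, adjusted p = 0.00426, limma), at a level above 89.1% of the receptor probe sets. Actins are close relatives, and the sources used here do not say whether the probes of Acta2 exclude the other actins.

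Promoter sequence adds what the levels do not use. RefSeq windows (GRCm38.p6) were at hand for 7 of the 10 genes, and the 250 bases before the annotated start were read; Myh11, Tagln and Dcn were not among them. SRF binds the CArG box, and many smooth muscle genes are known for such boxes close to their start. An exact CArG box on either strand was found in 0 of the 7 windows, against 1.47% of all 32851 windows. A CArG-like box with 1 C or G in its core of 6 bases, a form added after the sequences were seen, was present in Acta2, with 2 matches, and in Meis1, with 1, against 7.24% of all windows. The TEAD site CATTCC, on either strand, was found in Acta2 alone of the 7, against 12.6% of all windows. The Acta2 stretch is printed because it holds all 3 of these matches: it runs 5′ to 3′ on the minus strand (GRCm38.p6, chr19:34255393-34255523), with the TEAD site read from the other strand and both CArG-like boxes in capitals.
Acta2: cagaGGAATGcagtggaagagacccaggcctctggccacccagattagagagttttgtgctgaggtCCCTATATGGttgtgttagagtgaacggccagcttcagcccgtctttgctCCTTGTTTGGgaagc

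The 3 matches in Acta2 began 146, 84 and 34 bases before the start and did not overlap. The match in Meis1, CCTGTTATGG, began 31 bases before its start. A match of letters is a description and not a bound site, and these data hold no measure of SRF binding.

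Myh11, the smooth muscle myosin heavy chain, is held to be the most specific gene of mature smooth muscle. Its log2 level was 7.92, 8.01 and 8.01 in replicates 1, 2 and 3, so that replicate 1 lay just under the receptor limit and the others just over it. The mean differed from the limit by 0.03 (95% interval -0.14 to 0.21, adjusted p = 0.644, limma), and Myh11 therefore could not be placed on either side. Without replicate 1 the remaining values were identical, and the resulting call above the limit (0.06) rests on no measured spread.

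Tagln encodes transgelin (SM22 alpha), an actin-binding protein of smooth muscle. Replicates 1, 2 and 3 gave log2 levels of 7.76, 7.87 and 7.76, highest in replicate 2 and under the receptor limit in every array. The mean lay 0.15 below the limit, with a 95% interval of the difference from -0.33 to 0.03. The prior decided the call: with all genes in the prior Tagln was below the limit (adjusted p = 0.041, limma), and with the prior from genes with 3 different values it was not told from it (adjusted p = 0.0889). The call below was also lost without replicate 1 (adjusted p = 0.234) and without replicate 3 (adjusted p = 0.243).

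Cnn1, calponin, binds actin and slows the myosin motor of smooth muscle. Cnn1 had a log2 level of 7.65 in all 3 arrays (200 units). Cnn1 lay 0.30 below the receptor limit (95% interval of the difference -0.47 to -0.14, adjusted p = 0.00938, limma). Of the contractile genes, Acta2, Tagln and Cnn1 were thus under the limit in every array and Myh11 in replicate 1 only.

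Des encodes desmin, the intermediate filament of muscle cells, which in the kidney is also known from mesangial cells, pericytes and injured podocytes. Des had a log2 level of 7.63 in all 3 arrays (198 units), again without spread. Des lay 0.32 below the receptor limit (95% interval of the difference -0.48 to -0.15, adjusted p = 0.00797, limma), above 90.2% of the receptor probe sets.

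Rgs5 is a regulator of G protein signalling that shortens the response to contractile agonists and marks many pericytes. Its log2 level was 7.94 in replicate 1 and 7.61 in both other arrays (245, 195 and 195 units). Replicate 1 exceeded the mean of the other arrays by 0.33, the largest departure of any array among the 10 genes, and still lay just under the receptor limit. The SD of Rgs5 was 0.19, and 11.9% of all genes had a larger one. Rgs5 could not be told from the receptor limit (difference -0.23, 95% interval -0.51 to 0.05, adjusted p = 0.0906, limma). Without replicate 1 the other values were identical and the difference was -0.34, with no measured spread.

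Cspg4 encodes NG2, a large surface proteoglycan by which pericytes are stained in tissue sections. Its log2 level was 8.01, 8.01 and 8.04, slightly higher in replicate 3 and above the receptor limit in every array. The margin was small: the mean exceeded the limit by 0.08 (95% interval -0.09 to 0.24). Cspg4 was above the limit with all genes in the prior (adjusted p = 0.00973, limma) and not told from it with the prior from genes with 3 different values (adjusted p = 0.282). The call was also lost without replicate 1 (adjusted p = 0.108) or replicate 2 (adjusted p = 0.1).

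Mcam, the adhesion molecule CD146, is a receptor on mural and endothelial cells. Its log2 level was 9.77, 9.82 and 9.77 (870, 906 and 870 units). All arrays were far above the receptor limit, with replicate 2 the highest by a narrow margin. The mean exceeded the limit by 1.84 (95% interval 1.67 to 2.01, 3.57-fold, adjusted p = 4.8e-05, limma), and 99.8% of the receptor probe sets were lower.

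The 7 promoter windows also differed in CG dinucleotides, which are dense at promoters of widely expressed genes; this count was chosen after the levels were known and carries no test. Mcam had 25 CG dinucleotides in 250 bases, more than 89.3% of all windows. Meis1 had 13 (more than 68.5%), Cspg4 12 (more than 66.5%) and Des 10 (more than 62.2%), while Acta2 and Rgs5 had 4 each (more than 37.8%) and Cnn1 had 3 (more than 29.0%), against a median of 6 over all windows. The 3 genes at the receptor limit in every array, Mcam, Meis1 and Cspg4, had the highest counts of the 7, but Cspg4 exceeded the limit by only 0.08. Whether CG count and level go together over all genes was not tested. The extremes are shown as the last 130 bases before the start of Mcam (GRCm38.p6, plus strand, chr9:44134528-44134657) and of Cnn1 (GRCm38.p6, plus strand, chr9:22099123-22099252), with each CG in capitals.
Mcam: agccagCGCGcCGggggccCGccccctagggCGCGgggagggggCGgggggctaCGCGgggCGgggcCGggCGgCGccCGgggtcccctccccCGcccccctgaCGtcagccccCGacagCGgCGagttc
Cnn1: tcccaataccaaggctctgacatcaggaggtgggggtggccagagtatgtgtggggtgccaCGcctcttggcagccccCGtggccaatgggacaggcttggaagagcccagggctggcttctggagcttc

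These stretches held 19 CG dinucleotides in Mcam and 2 in Cnn1.

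Meis1 is a homeodomain transcription factor that acts with PBX partners, and the study used it as a mesangial marker when checking its glomerular samples. In the medullary cells its log2 level was 8.99, 8.91 and 8.99 (508, 483 and 508 units), with replicate 2 the lowest. Meis1 exceeded the receptor limit by 1.02 (95% interval 0.84 to 1.19, 2.02-fold, adjusted p = 0.00022, limma) and lay above 99.4% of the receptor probe sets. Mcam and Meis1 kept their calls above both limits under all 15 alternatives tried. The alternatives for choosing among probe sets could not move their levels, since each has 1 probe set.

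Dcn encodes decorin, a small leucine-rich proteoglycan that binds collagen fibrils and transforming growth factor beta. Dcn had a log2 level of 7.26 in all 3 arrays (154 units). Dcn lay 0.68 below the receptor limit (95% interval of the difference -0.85 to -0.52, adjusted p = 0.000654, limma), and 82.6% of the receptor probe sets were lower. It stayed 0.62 above 100 units (95% interval 0.45 to 0.79).

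**Figure D2:**
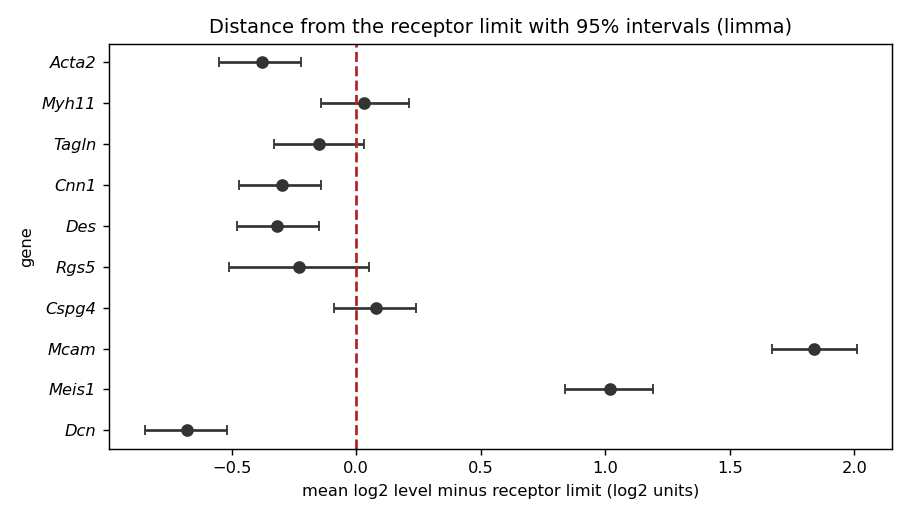
Mean log2 level minus the receptor limit (x axis, log2 units) for each gene (y axis), with 95% intervals from limma with the prior from genes with 3 different values (n = 3 arrays). Intervals of Mcam and Meis1 lay above 0, those of Acta2, Cnn1, Des and Dcn below it, and those of Myh11, Tagln, Rgs5 and Cspg4 crossed it.

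Of the 10 genes, 7 had a mean within 0.4 log2 units of the receptor limit, a band that held 23.9% of all genes. Those under the limit in every array numbered 6, and even these were higher than at least 82.6% of receptor probe sets. These 6 genes thus lay in the upper part of the receptor range and not at its bottom, but this is not particular to them. The median log2 level over all genes, 8.15, was above the receptor limit itself. By limma 5 of the 10 genes lay below the limit, against 41.5% of all genes.

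**Figure D3:**
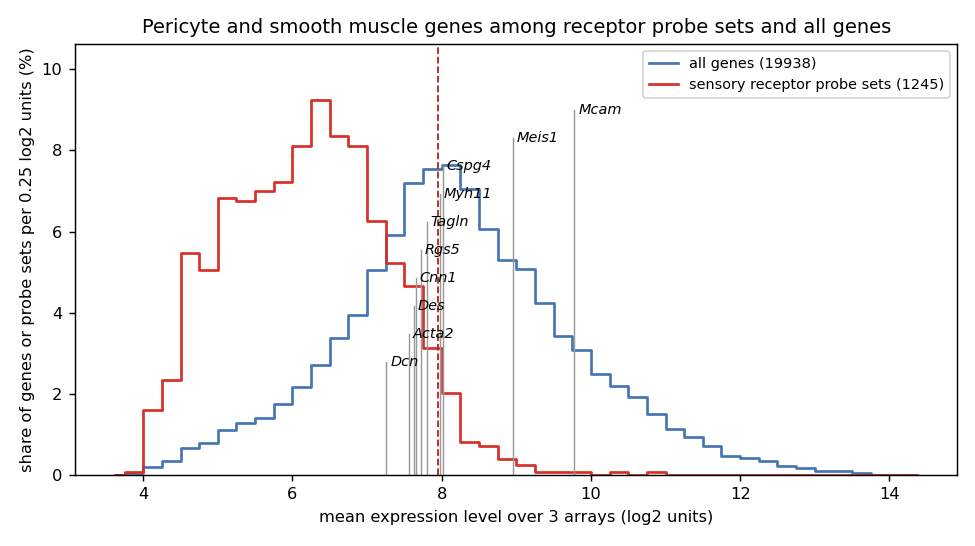
Share of all 19938 genes (blue) and of 1245 sensory receptor probe sets (red) in bins of mean log2 level (x axis, log2 units; y axis, percent), with the mean of each of the 10 genes as a vertical line and the receptor limit dashed. Most of the 10 genes fell in the upper shoulder of the red curve, with Meis1 and Mcam to the right of nearly all of it.

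All 10 genes had exactly the same value in at least 2 arrays. Acta2, Cnn1, Des and Dcn (4 of 10) had the same value in all 3 arrays, against 46.3% of all genes. The other 6 had 2 different values, against 29.7% of all genes, and 0 of the 10 had 3 different values, against 24.0% of all genes. The median departure of each array from the mean of the others was 0.00 for the 10 genes in every array, as over all genes. On summed units the 10 genes reached a log2 of 11.59, 11.59 and 11.58 in replicates 1, 2 and 3, and these sums nearly coincided.

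Some genes of other cell types had larger departures. Umod, the uromodulin of the thick ascending limb, had log2 levels of 11.61, 10.40 and 9.49, and Slc12a1, the cotransporter of the same segment, 9.68, 8.07 and 7.81, both highest in replicate 1. Kcnj1, the potassium channel of that segment, was at 8.84 in all arrays, and the median departure of replicate 1 over the tubule list was 0.00. Rgs5 was also highest in replicate 1, whereas Myh11 was lowest there. The antigen presentation gene Cd74 had log2 levels of 9.27, 10.93 and 9.53, highest in replicate 2, as were Tagln and Mcam by 0.11 and 0.06. The part of tubule or leukocyte RNA in the departures of Rgs5, Tagln and Mcam was not tested. In the whole tubule list 5 of 7 measured genes and in the leukocyte list 5 of 12 were at the receptor limit in every array. The summed units of the tubule list had a log2 of 12.54, 11.84 and 11.44 in the 3 arrays, and those of the leukocyte list 12.13, 12.97 and 12.21. Ptprc (CD45), the defining surface protein of leukocytes, had a log2 level of 6.68 in every array and was among the 7 leukocyte genes below the receptor limit by limma. The 5 above it included Cd74, H2-Aa (10.90 ± 0.49) and H2-Ab1 (9.91 ± 0.67), all 3 highest in replicate 2.

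**Figure D4:**
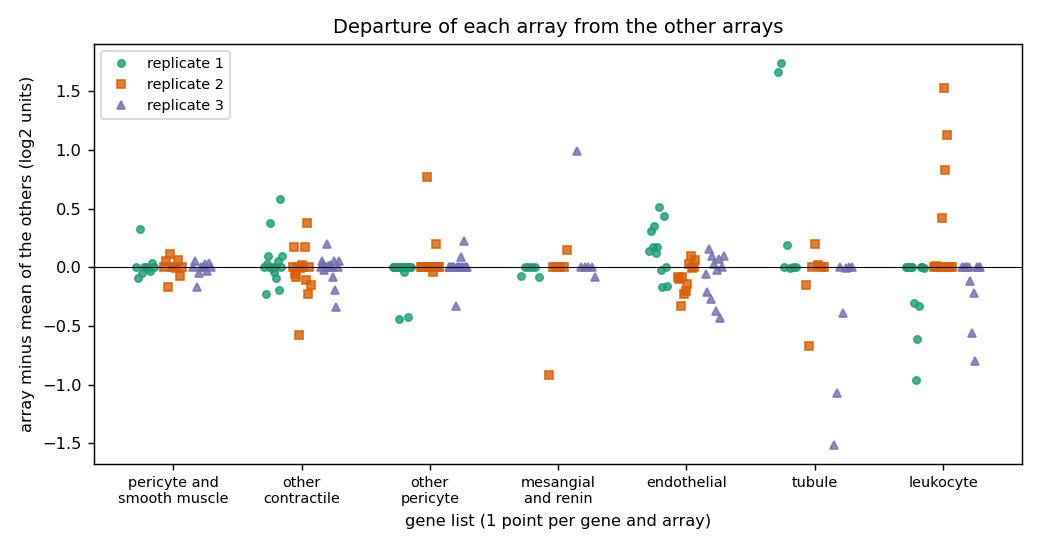
Departure of each array from the mean of the other arrays (y axis, log2 units), 1 point per gene and array, for the 10 pericyte and smooth muscle genes and 6 other lists (x axis). The 10 genes stayed within 0.33 of 0, while tubule genes reached 1.74 in replicate 1 and leukocyte genes 1.53 in replicate 2.

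The further contractile genes stood on both sides of the receptor limit. Of 16 measured, 10 (62.5%) were at the receptor limit in every array; by limma 10 lay above and 5 below it, with a median log2 level of 8.53. Actg2, the gamma-actin of visceral muscle, had the same log2 level of 7.51 in all arrays, and Myl9, the regulatory light chain of smooth muscle myosin, had 7.35, 7.62 and 7.54. Both were below the limit, as were Lmod1 (7.90), a nucleator of actin filaments, Tpm2 (7.52), a tropomyosin, and Synpo2 (6.69 ± 0.03), an actin-bundling protein. The call for Lmod1 was lost with the prior from genes with 3 different values (adjusted p = 0.516, limma). Among the 10 above it were Mylk (9.13 ± 0.03), the kinase that switches on smooth muscle myosin and occurs in endothelium too, and Smtn (10.92 ± 0.06), smoothelin.

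The close relatives of the actin, myosin, calponin, transgelin and desmin genes were mostly above the limit. Of 13 measured actin, non-muscle myosin, calponin, transgelin and intermediate filament relatives, 10 were at the limit in every array. Actb, the cytoplasmic actin of all cells, averaged a log2 level of 13.43 ± 0.14. The striated muscle actins Acta1 (8.32 ± 0.00) and Actc1 (8.07) were called above the receptor limit, and both are known mainly from muscle fibres; with the prior from genes with 3 different values Actc1 was not told from it (adjusted p = 0.125, limma). Prph (7.74), peripherin of neurons, and Gfap (7.61), the glial filament, were below it. The pericyte and smooth muscle genes had 3 of 10 at the limit in every array, against 6 of 12 for the genes of striated muscle; Myh1 (7.17) was below it, and Myh2 (8.12) was above it only with all genes in the prior (adjusted p = 0.0525 with the other prior, limma).

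Transcription of smooth muscle genes is known to depend on SRF and its partners. Of 10 genes of this control, 9 were at the receptor limit in every array and Myocd was not. Myocd, myocardin, the SRF partner largely restricted to smooth and cardiac muscle, had a log2 level of 6.66 ± 0.00, close to 100 units and below the receptor limit (adjusted p = 0.000103, limma). Srf itself averaged 8.39 ± 0.16, and the widely expressed partners Mrtfa and Mrtfb 8.19 and 10.73 ± 0.02, all 3 above the limit.

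Further pericyte genes had 7 of 18 measured (38.9%) at the receptor limit in every array, with 7 above and 10 below it by limma and a median log2 level of 7.58. Pdgfrb, the receptor through which endothelial PDGF-B recruits pericytes, had a log2 level of 7.56 in all arrays and was below the limit (adjusted p = 0.00428, limma). Kcnj8 (8.87), the pore of the pericyte potassium channel sensitive to ATP, was above it, and its partner Abcc9, with a single value in all arrays, was above it only with all genes in the prior (adjusted p = 0.436 with the prior from genes with 3 different values). Notch3 (8.51), the Notch receptor of arterial smooth muscle, Cox4i2 (8.36), a respiratory chain subunit, and Foxs1 (8.24), a forkhead factor, were above it as well. Higd1b, a mitochondrial protein gene of pericytes, had log2 levels of 7.10, 7.91 and 7.17, highest in replicate 2, and could not be told from the limit (adjusted p = 0.0542, limma). Values of 15 of these 18 genes were the same in all arrays.

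The families of Rgs5, Meis1 and Dcn gave mixed counts. In the R4 subfamily of RGS genes, to which Rgs5 belongs, 3 of 9 were at the receptor limit in every array. Rgs2 (10.68 ± 0.03) and Rgs3 (9.61 ± 0.18) were above it, Rgs16 was above it only with all genes in the prior (adjusted p = 0.455 with the other prior, limma), Rgs1 (5.57) and Rgs4 (7.16) were below it, and Rgs8 (7.79 ± 0.08) was not told from it. Of 7 MEIS and PBX genes measured, 6 were at the limit in every array: Meis2 reached 12.39 in all arrays, Meis3 8.25, Pbx2 9.07 ± 0.12 and Pbx3 8.60 ± 0.20, and Pknox2 (7.30) was the exception. Of 12 small leucine-rich proteoglycans, 4 were at the limit in every array. These were Bgn (10.99 ± 0.08), biglycan, the closest relative of Dcn, Prelp (9.73), Podn (8.35) and Ecm2 (8.98 ± 0.37), while Fmod (7.06), Lum (5.92 ± 0.01) and Ogn (5.88) were below it.

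Genes of the neighbouring stromal cells also stood on both sides. Of 10 fibroblast genes, 4 were at the receptor limit in every array: the collagen chains Col1a1 (8.81), Col1a2 (8.31 ± 0.03) and Col3a1 (8.17), and Cygb (8.22 ± 0.07), cytoglobin. Pdgfra (7.61), the PDGF receptor of fibroblasts, was below it, as Dcn was. Of 6 mesangial and renin cell genes measured, 1 was at the limit in every array. That gene, Itga8, the integrin alpha 8 chain, varied between arrays, with log2 levels of 10.03, 9.46 and 10.74, and Gata3 (7.25), Foxd1 (6.60) and Agtr1a (7.80) were below it, Agtr1a only with all genes in the prior (adjusted p = 0.0817 with the other prior, limma). Meis1 and Itga8 were thus both above the limit, with an SD of 0.04 for Meis1 and of 0.64 for Itga8.

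The signals that endothelial cells send to mural cells were all above the receptor limit, 10 of 10 in every array. They included Pdgfb (9.63), which recruits pericytes, its relative Pdgfd (8.82 ± 0.20), Tgfb1 (9.44 ± 0.66), which drives smooth muscle differentiation, and the Notch ligand Jag1 (8.69 ± 0.16). The mural receptors for these signals named above differed: Pdgfrb was below the limit and Notch3 above it.

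**Figure D5:**
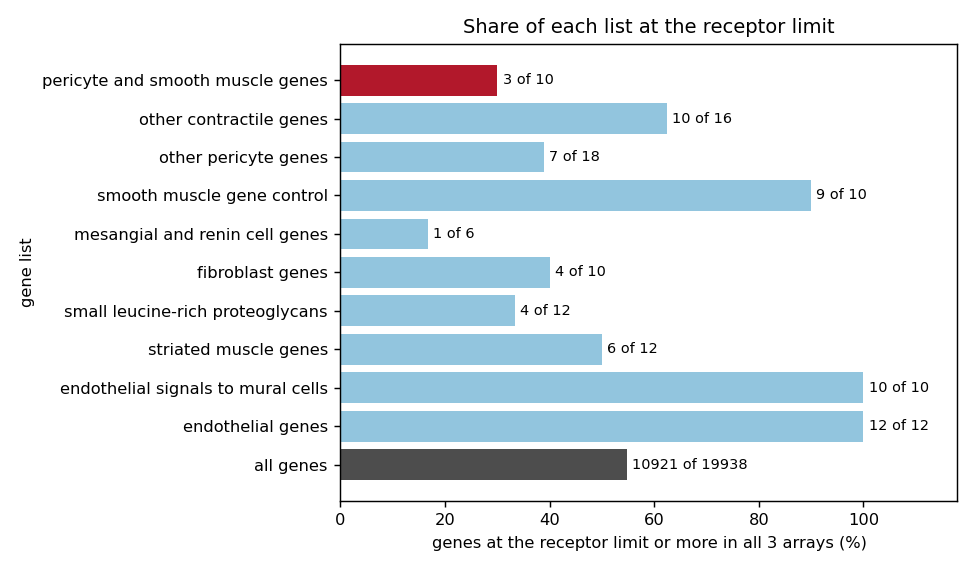
Percent of measured genes at the receptor limit or more in all 3 arrays (x axis, bars from 0) for the pericyte and smooth muscle genes, 9 related lists and all genes (y axis), with the counts beside each bar. The 10 genes stood at 3 of 10, against 12 of 12 endothelial genes and 10921 of 19938 genes overall.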

How the data were processed

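RNA of sorted medullary endothelial cells was measured on 3 Affymetrix Mouse Gene 1.0 ST arrays after 1 round of amplification. The deposited table holds 1 log2 level per probe set and array. The authors used Affymetrix Expression Console per the labels. The study's methods name GeneSpring, and its results name RMA normalization for a comparison of all its endothelial samples. That the scale is log2 was read from the span of the values, 3.55 to 14.43. The genome build behind the probe sets is not given in the sources used. Of 35557 probe sets, 21789 carried 1 gene in the platform annotation, 1621 several and 12147 none; 21698 were updated to RefSeq symbols of GRCm38.p6. Where several probe sets named a gene alone (999 genes, none of them among the 10 followed), the one with the highest mean stood for it.

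Each gene's log2 level minus a limit was fitted with limma 3.58.1 (intercept only, lmFit and eBayes, R 4.3.3), two-sided, with Benjamini-Hochberg adjustment over 19938 genes and a threshold of 0.05. Because many genes have no spread, the prior of this fit had 0.25 degrees of freedom; the alternative prior from genes with 3 different values had 1.91. The fit with all genes in the prior was checked on simulated data whose spreads were drawn from genes with 3 different values. That check covered neither genes with repeated values nor the alternative prior. Neither probe-level files nor scan dates were used, and batches could not be looked for. The members and lists were chosen with earlier results of these data known; lists are described by counts and medians, with no set test. Named genes are all 10 members, the first 4 measured genes of each related list and up to 3 further genes whose call differs from most of their list; not all of these are printed. Some genes of the lists were not analysed here. Alternatives changed either limit, the choice among probe sets of a gene, the scaling, the prior, the features tested and the arrays. Python 3.11.15 with numpy 2.4.6, pandas 2.3.3 and matplotlib 3.10.9 was used for the rest.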

Additional observations from a re-analysis of the deposited data

How the results depend on the processing

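Counts and array medians of the 10 genes were recomputed under 15 alternatives; 125 of these values stayed near the reported one and 7 moved, all with a changed limit. Many values could not move. Each of the 10 genes has 1 probe set, and a change of either limit leaves the counts at the other unchanged. Array medians do not depend on a limit or a prior. Small changes of a count were also taken as staying. Among these, genes above the receptor limit went from 3 to 2 with the prior from genes with 3 different values. Those below it went from 5 to 4. With 200 units in place of 100, 6 genes lay above (62.3% of all genes) and 3 below it (32.9%) by limma, and 6 reached it in every array (64.2%); Acta2 (-0.08), Des (-0.01) and Dcn (-0.38) changed sign. With the receptor limit at the 90th percentile (7.61), 7 genes lay above (63.4% of all genes) and 2 below it (32.0%), 7 reached it in every array (65.2%), and Tagln (0.19), Cnn1 (0.04), Des (0.02) and Rgs5 (0.11) changed sign. At the 99th percentile (8.72), 8 genes lay below it (62.0% of all genes), and Cspg4 (-0.70) and Myh11 (-0.74) changed sign. These follow from the limit itself. All these calls had all genes in the prior, so genes without spread were called at very small differences, such as Cnn1 above 200 units at 0.00. At both limits Mcam and Meis1 kept their calls under all 15. Acta2 and Dcn did so at the receptor limit, but their values had no spread. With all genes in the prior their standard error in the main fit was 2e-05 log2 units, so nearly any distance is called. The difference of Acta2 from the 90th percentile was only -0.05, so its kept call there is no sign of robustness. Scaling the arrays to a common median or by quantiles changed no call of the 10 genes. Without each array in turn, limma called 8532 to 8726 genes of the whole array above the receptor limit, against 10455 with all arrays. No paired analysis was possible because the series has 1 group. Signal over background per probe was not used here, so levels near the receptor limit are limited by a background taken from other probes.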
